A study of Mus musculus with 8 samples.

Results

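Expression of 35 genes of mitosis and the spindle was read across 4 groups of mouse embryonic stem cells, 2 libraries each. The genes were listed by symbol and kept where at least 2 of the 8 libraries had 10 or more counts. All 35 of the 35 listed genes passed, with 10 or more counts in each of the 8 libraries, out of 27979 genes with a count. The list holds regulators of entry into mitosis, the chromosomal passenger complex, the spindle checkpoint, kinetochore proteins, kinesins and spindle proteins, genes of anaphase onset and cytokinesis, and the chromosomal proteins Mki67 and Top2a. The list rule reports 6 members apart from the other 29, those on chromosome 2 from base 71719417 (mm10) onward, here called distal chromosome 2. These 6 are Aurka, Bub1, Bub1b, Tpx2, Nusap1 and Ube2c. That boundary was placed from changes seen in the overexpression libraries of these same data, so the values of the 6 in that line are given as a description.

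Every group derives from the mouse embryonic stem cell line cMB063, of 129xC57BL/6 background, and carries Rosa26Cre-ERT2/BirA-V5 (an inducible Cre recombinase with a tagged biotin ligase). The parental genotype serves as wild type. The TRIM71 knockout is labelled TRIM71-/- and lacks an RNA-binding protein of stem cells. The Mbnl1 3′UTR mutant carries altered 3′ untranslated sequence on both copies of Mbnl1, which encodes a splicing regulator, and the overexpression line has a stable transfection of MBNL1::T2A::Puromycin. Cells grew on gelatin in serum with LIF. Whether both libraries of a group came from separate cultures or clones is not in the labels, so clonal differences and genotype effects cannot be told apart, and p-values measure the spread between these libraries.

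In dividing cells, cyclin B with CDK1 starts mitosis, and Aurora and Polo kinases build the spindle. The spindle checkpoint holds back the ubiquitin ligase that triggers separase until every kinetochore is attached to microtubules, after which the central spindle guides the cleavage furrow. Transcripts of most of these genes are made late in the cell cycle, under repression and activation by complexes that bind a short promoter element, the cell cycle homology region (CHR), often with upstream CCAAT boxes bound by NF-Y. Embryonic stem cells cycle fast and express these genes at high levels.

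Total counts per library ranged from 75056306 to 86508533, and the 35 genes took between 0.683 and 0.836% of them. Levels are given in CPM (read counts relative to library size, corrected by TMM for differences in library composition). A gene was called where edgeR's quasi-likelihood test gave an adjusted p under 0.05 over the 18055 genes tested. Trim71 fell from 630 and 628 CPM in wild type to 101 and 105 CPM in the knockout libraries, and Mbnl1 stood at 193 and 195 CPM in overexpression, against 25.9 and 26.1 in wild type. These values go with the labels. Exons of Plk1, Cdca8, Kif4, Kif20a, Nusap1, Prc1, Cdc20 and Ube2c overlap exons of a gene on the opposite strand, and because the strand setting of the counting is not known here, reads of the overlap may belong to either gene. Between the libraries of a group the members differed by a median of 0.017 (knockout) to 0.050 (mutant) on the log2 scale, and the widest gap was that of Nusap1 in the mutant, at 0.18. In the mutant, 7 of the 35 members were higher in replicate 2 than in replicate 1, with a median difference of -0.045.

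Promoters of the members were searched for the CHR core TTTGAA and for CCAAT, each on both strands, in RefSeq windows (GRCm38.p6, the mm10 assembly) of 300 bases, 250 before to 50 after the start. Of the 35 members, 31 had an entry, and Kif20a, Aurkb, Tpx2 and Incenp had none. TTTGAA stood in the windows of 24 of these 31 genes, against 17.9% of 32851 promoters in the table, and CCAAT likewise stood in 24, against 37.4%. Both occurred together in 21 members, against 6.95% of all windows. In 22 of the 31 members a TTTGAA began within 50 bases of the start, against 4.94% of all windows. A match of letters is a description and not a site of binding. The 8 sequences below, of members whose levels are followed further on, are shown for the position of the motif, read 5′ to 3′ along the gene's strand, with the motif in capitals. TTCAAA is TTTGAA read on the opposite strand.
Top2a (GRCm38.p6 chr11:99024197-99024222, minus strand, motif starting at -23 bases from the start): tagataaaggTTCAAAtgaaactagg
Plk1 (chr7:122159455-122159480, plus strand, motif at 30): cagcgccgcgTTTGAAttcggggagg
Racgap1 (chr15:99651636-99651661, minus strand, motif at 5): ggtgcgtgatTTTGAAccggatctgg
Ect2 (chr3:27153824-27153849, minus strand, motif at 15): actggattttTTTGAAtcggaggcgg
Kif23 (chr9:61946782-61946807, minus strand, motif at 2): gattggcctgTTTGAAatgcgccggg
Kif4 (chrX:100626074-100626099, plus strand, motif at 19): ctgggatcaaTTTGAAacttggcggt
Cenpa (chr5:30666892-30666917, plus strand, motif at 16): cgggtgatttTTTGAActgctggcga
Aurka (chr2:172370523-172370548, minus strand, motif at 32): aaggagaaccTTTGAAttgtaacggc
Off distal chromosome 2, 21 members had TTTGAA in the window and 5 did not. In the knockout 4 were higher and 5 lower with it, and 2 and 0 without it. In overexpression these counts were 9 and 5 with it and 3 and 0 without it, and in the mutant 5 and 0 with it and 1 and 0 without it. Whether the motif bears on these changes was not tested.

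In wild type, levels per kb of exon spanned from 161 ± 8.02 CPM per kb (SD, n = 2) for Cdc20, the activator of the anaphase-promoting complex, to 9.87 ± 0.0438 CPM per kb for Cenpa, the centromeric histone. Next after Cdc20 came Top2a (114 ± 5.91), the topoisomerase that untangles chromosomes, Ccnb1 (93.7 ± 0.415), which encodes cyclin B1, and Bub1b (76.3 ± 0.767) with Ccnb2 (76.1 ± 0.506), all in CPM per kb. The libraries of Bub1b and Ccnb2 overlapped, as did those of 10 of the 34 neighbouring pairs in this order. Mad2l1, at 13.2 ± 0.197 CPM per kb, and Ndc80, at 14.1 ± 0.201, stood just above Cenpa. The length used is that of all annotated exons, so a gene with long alternative exons is listed lower.

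In the TRIM71 knockout the 29 members off distal chromosome 2 split evenly. Racgap1, Top2a, Plk1, Kif4, Birc5 and Nuf2 were higher (6 genes), Ect2, Kif2c, Kif23, Ndc80, Cenpf and Kif20a were lower (6 genes), and 17 did not pass. Over all genes tested, 44.8% were called, 24.1% higher and 20.7% lower, and over the 3893 genes of 50 CPM or more off distal chromosome 2, the level at which the members lie, 53.8% were called. The members' 41.4% thus lay near or below the background. Their median log2 change was -0.001, beside -0.005 for all genes, and single members ranged from -0.29 to 0.39. Without knockout replicate 2, 7 in place of 12 were called. On distal chromosome 2, Bub1b and Ube2c were higher in the knockout and the other 4 did not pass. Of distal genes of 50 CPM or more, 22.3% were higher and 28% lower. In these bulk samples a smaller share of cells in mitosis and less of a transcript per cell cannot be told apart.

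In the Mbnl1 3′UTR mutant, 7 of the 29 were higher and 0 lower, the smallest changes of the 3 lines by their range of -0.08 to 0.24. These were Top2a, Cenpe, Incenp, Mki67, Cenpf, Plk1 and Espl1. Over all genes 15.5% were called in this comparison, 8.02% higher and 7.5% lower, and over genes of 50 CPM or more off distal chromosome 2 22.5% were called, 17.7% higher and 4.83% lower. The members' share of 24.1% lay near the latter. At an unadjusted p under 0.05 there were 13 of the 29, and DESeq2 and limma-voom each called 7. None of the 6 members on distal chromosome 2 passed edgeR's test, 2 had an unadjusted p under 0.05, and DESeq2 and limma-voom also called 0. Of the 211 distal genes of 50 CPM or more, 24.6% were called, 19.4% higher and 5.21% lower. The mutant's count depended on single libraries: it was 2 without wild-type replicate 1 and 3 without mutant replicate 1, and Top2a and Cenpe were the members called under each of the 18 alternatives run. Without mutant replicate 2, Ccnb1 was called lower and Bub1b, on distal chromosome 2, higher.

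In Mbnl1 overexpression, 14 of the 29 were higher, 5 lower and 10 did not pass. The higher genes were led by Mki67, Cenpa, Cenpe, Kif4 and Top2a, and the lower ones were Kif23, Ect2, Ttk, Ndc80 and Cdc20. Over all genes 54.8% were called, 27.7% higher and 27.1% lower, and over genes of 50 CPM or more off distal chromosome 2 65.2% were called, 23.6% higher and 41.6% lower. The share of members called, 65.5%, was that of genes at this level, while higher calls outnumbered lower ones among the members and lower calls outnumbered higher ones among those genes. The members' median log2 change was 0.07, beside -0.010 for all genes. All 6 members on distal chromosome 2 were higher, and they are described after the others.

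**Figure D1:**
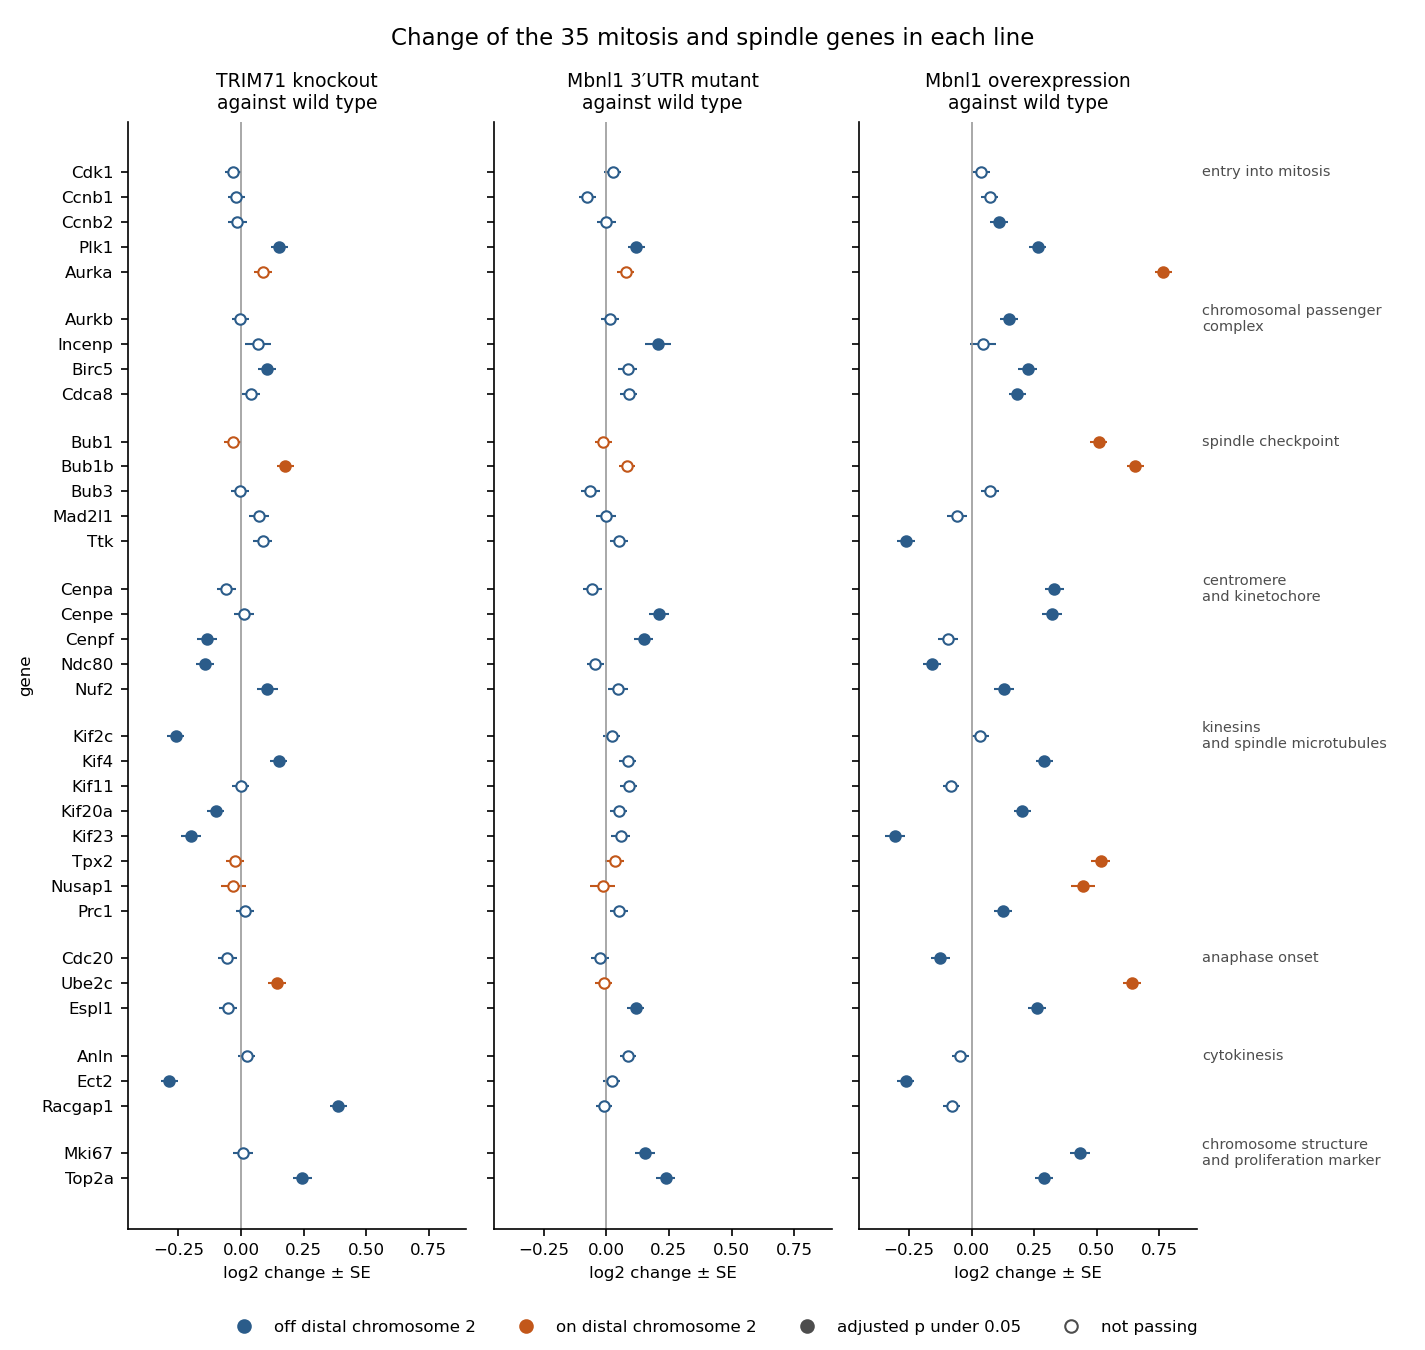
Log2 change ± SE (x axis) of each of the 35 genes (y axis, grouped by role) in the 3 lines against wild type, with filled points for genes passing the adjusted p of 0.05. The 6 members on distal chromosome 2 stand between 0.45 and 0.77 in overexpression, right of every other member, the nearest of which is Mki67 at 0.43.

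Among the regulators of mitotic entry, Plk1, Polo-like kinase 1, was higher in each of the 3 lines. Plk1 stood at 119 and 118 CPM in wild type, 132 and 131 in knockout libraries, 131 and 127 in mutant libraries and 144.5 and 140 under overexpression. Every library of a line lay above both wild-type libraries, with rises of 1.11-fold in the knockout (adjusted p = 0.00211), 1.09-fold in the mutant (adjusted p = 0.0292) and 1.2-fold in overexpression (log2 change 0.26, SE 0.035, adjusted p = 1.12e-05). The 3 comparisons share the wild-type libraries. In the mutant the call was lost under 7 of 18 alternatives, among them leaving out either wild-type library or mutant replicate 1. Ccnb2, cyclin B2, stood at 116 and 117 CPM in wild type, 115 and 115 in knockout libraries, 120 and 113 in mutant libraries and 128 and 123 under overexpression, where it rose 1.08-fold (adjusted p = 0.0211), a call lost without either wild-type library or overexpression replicate 1. Cdk1, the kinase that starts mitosis, and Ccnb1 passed in none of the 3 comparisons, with log2 changes between -0.08 and 0.07 and levels of 206 to 219 and 365 to 420 CPM over the 8 libraries.

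The chromosomal passenger complex joins the kinase Aurora B to Incenp, survivin and borealin at the centromere. In overexpression 3 of its 4 genes rose. Of genes of 50 CPM or more off distal chromosome 2, 65.2% were called in this line, 23.6% of them all higher and 41.6% lower. Birc5, which encodes survivin, stood at 96.4 and 99.4 CPM in wild type, 105 and 105 in knockout libraries, 105 and 102.5 in mutant libraries and 112 and 117 under overexpression. It was 1.17-fold higher in overexpression (adjusted p = 9.95e-05) and 1.07-fold higher in the knockout (adjusted p = 0.0344), the latter lost under 5 of 18 alternatives, including DESeq2 and leaving out wild-type replicate 1 or either knockout library. Cdca8, which encodes borealin, stood at 93.7 and 92.6 CPM in wild type, 96.4 and 95.1 in knockout libraries, 99.9 and 98.4 in mutant libraries and 105 and 106 under overexpression, a rise of 1.14-fold there. Aurkb, the kinase of the complex, held 87.6 and 84.9 CPM in wild type, 86.3 and 86.0 in knockout libraries, 86.3 and 87.9 in mutant libraries and 94.7 and 96.6 under overexpression, 1.11-fold higher. Incenp, its scaffold, followed another order, with 134 and 144 CPM in wild type, 146.5 and 144 in knockout libraries, 169 and 152 in mutant libraries and 148 and 139 under overexpression. Its rise in the mutant was 1.16-fold (adjusted p = 0.0151), lost without wild-type replicate 1 or mutant replicate 1, and in overexpression the groups overlapped (log2 change 0.05).

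Of the 3 spindle checkpoint genes off distal chromosome 2, 1 passed against wild type, in overexpression. Among genes of 50 CPM or more off distal chromosome 2, 65.2% were called in that line, 23.6% higher and 41.6% lower. The share was 53.8% in the knockout and 22.5% in the mutant. Ttk, the kinase that starts the checkpoint signal, stood at 110 and 114 CPM in wild type, 119.5 and 118 in knockout libraries, 118 and 114 in mutant libraries and 93.1 and 93.6 under overexpression. Its fall in overexpression was 1.2-fold (log2 change -0.26, SE 0.036, adjusted p = 1.99e-05). Bub3 and Mad2l1, which carry the signal from kinetochores to the anaphase-promoting complex, passed in none of the 3 comparisons, with log2 changes from -0.06 to 0.07.

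At the centromere and kinetochore the members went different ways in the same line. Cenpa, the centromeric histone, stood at 58.0 and 57.7 CPM in wild type, 55.3 and 55.8 in knockout libraries, 54.5 and 56.9 in mutant libraries and 73.1 and 72.3 under overexpression, where it was 1.26-fold higher (log2 change 0.33, SE 0.038, adjusted p = 2.61e-06). Cenpe, a kinetochore motor, stood at 166 and 176 CPM in wild type, 175 and 170.5 in knockout libraries, 204 and 191 in mutant libraries and 214 and 213 under overexpression. It was 1.16-fold higher in the mutant (adjusted p = 0.00207) and 1.25-fold higher in overexpression (adjusted p = 6.53e-06), and the knockout overlapped wild type. Cenpf, a large outer kinetochore protein, had 269 and 280 CPM in wild type, 256 and 243.5 in knockout libraries, 314 and 295 in mutant libraries and 259 and 255 under overexpression. It was 1.1-fold lower in the knockout (adjusted p = 0.0116) and 1.11-fold higher in the mutant (adjusted p = 0.0177). The first call was lost without wild-type replicate 2 or knockout replicate 2, and the second without wild-type replicate 1 or mutant replicate 1.

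Ndc80 and Nuf2 encode partners in the complex that grips microtubules, and their transcripts differed in direction. Ndc80 stood at 90.5 and 92.4 CPM in wild type, 83.5 and 82.1 in knockout libraries, 88.7 and 88.8 in mutant libraries and 81.8 and 82.2 under overexpression. Its falls were 1.1-fold in the knockout (adjusted p = 0.00349), lost without knockout replicate 2, and 1.12-fold in overexpression (adjusted p = 0.00126). Nuf2 stood at 94.2 and 96.0 CPM in wild type, 103 and 102 in knockout libraries, 102 and 94.2 in mutant libraries and 104 and 104 under overexpression. It was 1.08-fold higher in the knockout, at an adjusted p of 0.0488 that was lost under 11 of 18 alternatives, among them DESeq2, limma-voom and leaving out each wild-type or knockout library. In overexpression it was 1.1-fold higher (adjusted p = 0.0132), lost without wild-type replicate 1 or overexpression replicate 2.

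Among the kinesins off distal chromosome 2, Kif2c, a microtubule depolymerase at centromeres, was lower in the knockout and did not pass in the other lines. Its libraries stood at 162 and 158 CPM in wild type, 134 and 134 in knockout libraries, 165 and 160 in mutant libraries and 164.5 and 164 under overexpression, and the knockout was 1.2-fold lower (log2 change -0.26, SE 0.034, adjusted p = 1.67e-05). Kif23, the motor subunit of centralspindlin at the central spindle, had 116 and 113 CPM in wild type, 99.7 and 99.5 in knockout libraries, 123 and 114.5 in mutant libraries and 92.1 and 93.0 under overexpression. Both pairs of low libraries lay below every wild-type and mutant library, 1.15-fold lower in the knockout (adjusted p = 0.000744) and 1.24-fold lower in overexpression (adjusted p = 9.61e-06). Kif4, a chromokinesin, stood at 95.3 and 95.0 CPM in wild type, 106 and 105 in knockout libraries, 102 and 99.95 in mutant libraries and 116.5 and 116 under overexpression. It rose 1.11-fold in the knockout (adjusted p = 0.00214) and 1.22-fold in overexpression (adjusted p = 3.35e-06).

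Kif20a, a cytokinesis motor, went down in the knockout and up in overexpression. Its level was 261 and 251.5 CPM in wild type, 237 and 241 in knockout libraries, 270 and 261 in mutant libraries and 296 and 294 under overexpression. The knockout's fall of 1.07-fold (adjusted p = 0.0269) was lost without wild-type replicate 1, either knockout library or overexpression replicate 1, and the rise in overexpression was 1.15-fold (adjusted p = 0.000131). Prc1, which bundles the central spindle, had 184 and 190 CPM in wild type, 188 and 189 in knockout libraries, 198 and 189 in mutant libraries and 204 and 203 under overexpression, 1.09-fold higher there (adjusted p = 0.00708) and no longer called without wild-type replicate 1. Kif11, the motor that pushes spindle poles apart, passed in none of the 3 (log2 changes from -0.08 to 0.09).

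For anaphase onset, Espl1, which encodes separase, stood at 177 and 180 CPM in wild type, 173 and 171 in knockout libraries, 191 and 196 in mutant libraries and 209 and 219 under overexpression. It was 1.2-fold higher in overexpression (adjusted p = 1.31e-05) and 1.08-fold higher in the mutant (adjusted p = 0.0349), the latter lost under 7 of 18 alternatives, among them leaving out either wild-type library or mutant replicate 2. Cdc20 stood at 311 and 289.5 CPM in wild type, 286 and 292 in knockout libraries, 292 and 298 in mutant libraries and 273 and 278 under overexpression, where it was 1.09-fold lower (adjusted p = 0.0109). That call was lost without wild-type replicate 1, without overexpression replicate 1 and with library size alone as the scale.

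The cytokinesis members held the widest contrast of the knockout. Racgap1 (mm10 chromosome 15, 99620496 to 99651656, minus strand) encodes the GTPase-activating subunit of centralspindlin, the partner of Kif23. It stood at 150 and 148 CPM in wild type, 194 and 196 in knockout libraries, 150 and 147 in mutant libraries and 140 and 142 under overexpression. Both knockout libraries lay above all 6 others, 1.31-fold over wild type (log2 change 0.39, SE 0.033, adjusted p = 2.06e-07), the smallest adjusted p of a member in the knockout. Ect2 (chromosome 3, 27097222 to 27153878, minus strand), the exchange factor that centralspindlin recruits to activate RhoA, went the other way. Its libraries stood at 283 and 290 CPM in wild type, 235 and 235 in knockout libraries, 296 and 285 in mutant libraries and 237.5 and 240 under overexpression. It was 1.22-fold lower in the knockout (log2 change -0.29, SE 0.034, adjusted p = 5.88e-06) and 1.2-fold lower in overexpression (log2 change -0.26, SE 0.034, adjusted p = 8.66e-06). Thus in the knockout Racgap1 rose while its complex partner Kif23 and its effector Ect2 fell. Anln, an actin-binding scaffold of the furrow, passed in none of the 3, with 231 to 260 CPM over the 8 libraries.

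Top2a (chromosome 11, 98992943 to 99024189, minus strand) had the highest level of the members before division by length. It stood at 986 and 1061 CPM in wild type, 1206 and 1220 in knockout libraries, 1222 and 1191 in mutant libraries and 1264 and 1236 under overexpression. All 6 libraries of the altered lines lay above both wild-type libraries, although the wild-type pair differed by 0.11 on the log2 scale, the widest gap of a member in that group. The rises were 1.19-fold in the knockout (adjusted p = 6.42e-05), 1.18-fold in the mutant (adjusted p = 0.000384) and 1.22-fold in overexpression (adjusted p = 8.06e-06), and each stayed called in all 18 alternatives, with log2 changes of 0.20 to 0.30, 0.19 to 0.29 and 0.24 to 0.34. The snoRNA-type gene Gm23451 lies within Top2a on the same strand and shares 122 bases with its exons. Top2a and Plk1 were the 2 members called in all 3 lines, which share the same wild-type libraries. The share of all tested genes called in all 3 lines was not counted, so this number has no background beside it.

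Mki67 (chromosome 7, 135689784 to 135716361, minus strand), the coat protein of mitotic chromosomes used as a proliferation marker, stood at 242 and 248 CPM in wild type, 245 and 248 in knockout libraries, 283 and 262 in mutant libraries and 336 and 325 under overexpression. The overexpression libraries lay highest, 1.35-fold over wild type (log2 change 0.43, SE 0.039, adjusted p = 1.97e-07). The mutant was 1.11-fold higher (adjusted p = 0.0132), lost without wild-type replicate 1 or mutant replicate 1, and the knockout overlapped wild type.

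**Figure D2:**
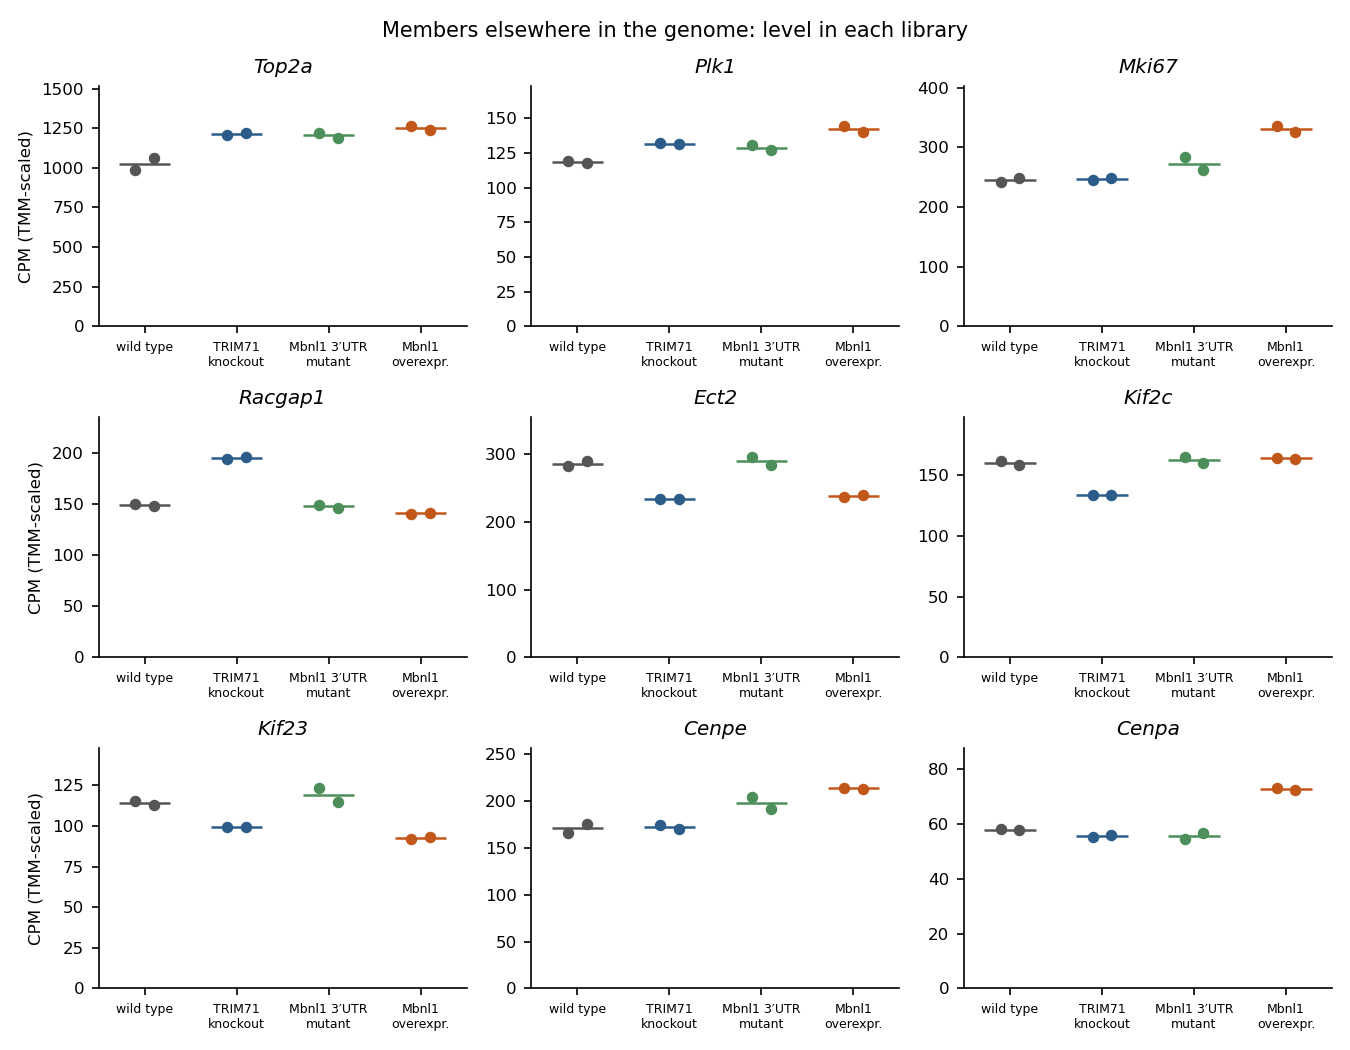
CPM (y axis, from 0) of 9 members off distal chromosome 2 in each library (points) with the mean of each group of 2 (lines). Racgap1 is high in the knockout pair alone (194 and 196 CPM), Ect2 and Kif23 are low in the knockout and overexpression pairs, and Top2a is lowest in the wild-type pair.

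The 6 members on distal chromosome 2 were all higher in overexpression, as were most other genes of that stretch: of the 971 tested genes there, 67.7% were higher and 6.39% lower, and of the 211 with 50 CPM or more 93.4% were higher. The median log2 change of distal genes was 0.48, a 1.4-fold level, against -0.05 for the 527 genes of chromosome 2 before the boundary. Aurka (chromosome 2, 172356190 to 172370535, minus strand), the Aurora A kinase of centrosomes and spindle poles, stood at 130 and 129 CPM in wild type, 138 and 138 in knockout libraries, 139 and 135 in mutant libraries and 216 and 225 under overexpression. This was 1.7-fold over wild type, a log2 change of 0.77 that exceeded the distal median by 0.28 and lay at percentile 73.8 of distal genes. In the knockout Aurka's log2 change of 0.09 missed the threshold (adjusted p = 0.0529). Aurka was called there with library size alone or median-ratio factors as the scale and with only the compared groups in the fit. The older quasi-likelihood method of edgeR also called it, but DESeq2 and limma-voom did not.

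Bub1b (118598211 to 118641591, plus strand) encodes the checkpoint protein BubR1. It stood at 324 and 328 CPM in wild type, 367 and 370 in knockout libraries, 351 and 340 in mutant libraries and 520 and 507 under overexpression, 1.57-fold higher in the last and 0.17 above the distal median on the log2 scale. Its rise in the knockout was 1.13-fold (adjusted p = 0.000442) and was kept in all 18 alternatives. Distal genes as a whole had a median log2 change of -0.009 in the knockout. The nearest genes of Bub1b, 5 of 10 CPM or more on each side, had a median of 0.22 there. Of these 10, 7 were called higher, 0 lower, and 7 exceeded Bub1b itself. Around Ube2c that median was -0.04, with 0 called higher and 2 lower. Ube2c (164769898 to 164778822, plus strand), the ubiquitin-conjugating enzyme of the anaphase-promoting complex, stood at 113 and 110 CPM in wild type, 123 and 122.5 in knockout libraries, 113 and 108 in mutant libraries and 174.5 and 172 under overexpression. It was 1.56-fold higher in overexpression, 0.16 above the distal median on the log2 scale, and 1.1-fold higher in the knockout (adjusted p = 0.00378).

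Tpx2, Bub1 and Nusap1 lay close to the distal median. Tpx2 (152847964 to 152895321, plus strand), which activates Aurora A on spindle microtubules, stood at 256.5 and 250.0 CPM in wild type, 250 and 249 in knockout libraries, 267 and 251 in mutant libraries and 367 and 357.5 under overexpression, 1.43-fold higher and 0.03 above that median. Bub1 (127801122 to 127831865, minus strand), a checkpoint kinase, stood at 180 and 184 CPM in wild type, 178 and 178 in knockout libraries, 183 and 177 in mutant libraries and 262.5 and 255 under overexpression, 1.42-fold higher and 0.02 above it. Nusap1 (119618298 to 119651244, plus strand), a microtubule bundler, stood at 112 and 117 CPM in wild type, 113 and 111 in knockout libraries, 120 and 106 in mutant libraries and 159 and 153 under overexpression, 1.36-fold higher and at -0.04 from it.

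Their direct neighbours, the 5 genes of 10 CPM or more on each side, also had raised medians in overexpression. For Aurka the neighbours' median log2 change was 0.46 and 1 of the 10 exceeded Aurka itself. For Bub1b and Nusap1 the median was 0.63, with 4 and 9 of 10 above the member. It was 0.45 around Ube2c, 0.43 around Bub1 and 0.35 around Tpx2. Of each set of 10 neighbours, 8 to 10 were called higher. No value of copy number was measured here.

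**Figure D3:**
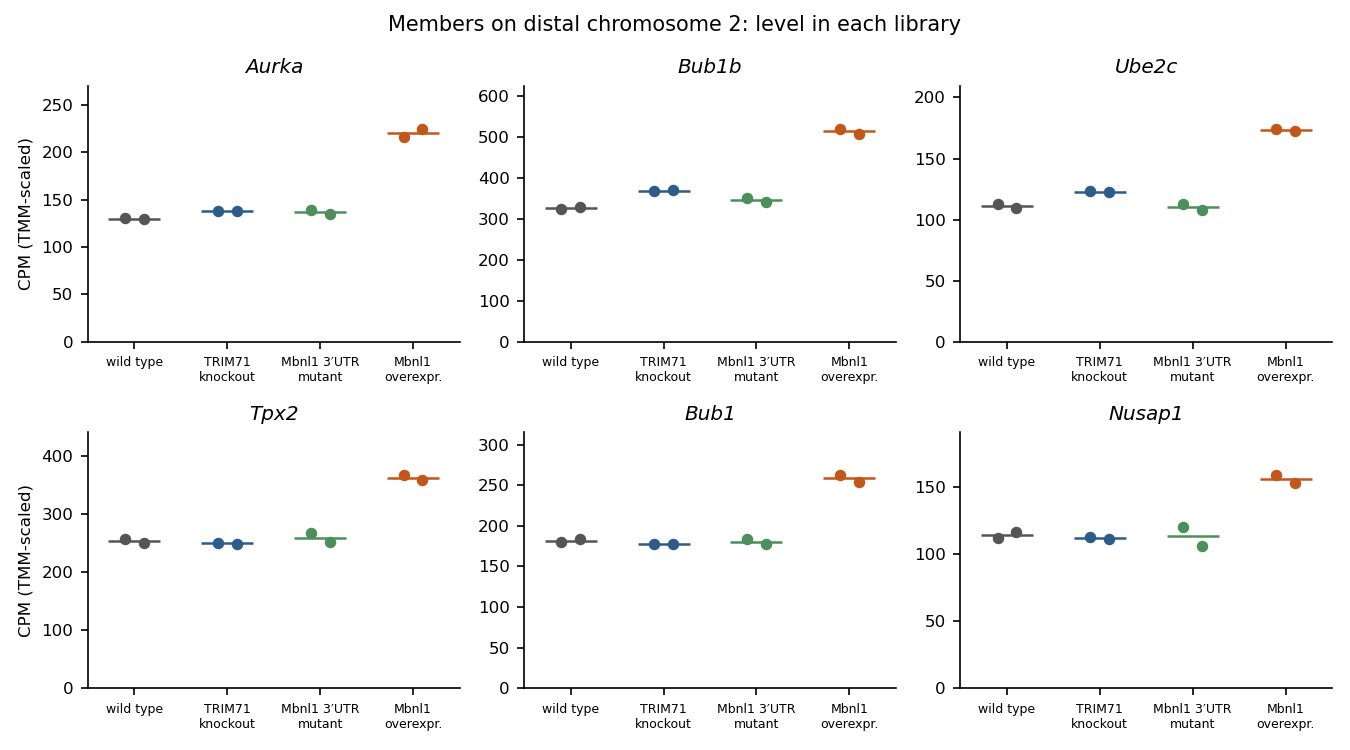
CPM (y axis, from 0) of the 6 members on distal chromosome 2 in each library (points) with group means (lines). In each panel both overexpression libraries lie above the other 6. Aurka, Bub1b and Ube2c also show the knockout pair above the wild-type pair, though Aurka did not pass there.

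**Figure D4:**
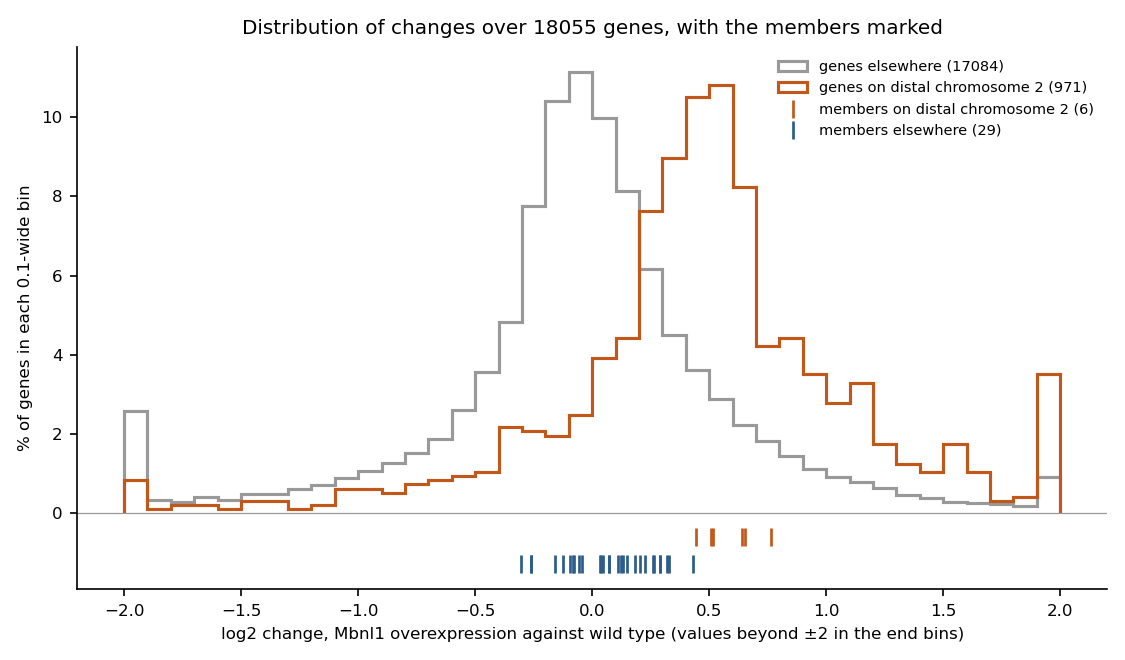
Distribution of the log2 change in overexpression against wild type (x axis) as % of genes per 0.1-wide bin (y axis), for the 971 genes on distal chromosome 2 and the 17084 elsewhere, with the members as ticks below. The distal distribution peaks near its median of 0.48, the 6 distal members lie inside it, and the 29 others lie around 0 between -0.31 and 0.43.

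Direct comparisons between the altered lines set their group means against each other, without the wild-type mean. Wild-type libraries still entered the shared model, its scaling and its estimate of spread. Against the mutant, the knockout had 1 member off distal chromosome 2 higher, Racgap1 (1.32-fold, adjusted p = 1.56e-07), and 11 lower, where over all genes 45.5% were called (24.4% higher, 21.1% lower) and over genes of 50 CPM or more off distal chromosome 2 57.6% were called (21.3% higher, 36.3% lower). The lower ones were led by Ect2 (1.24-fold, adjusted p = 2.63e-06), Kif2c (1.22-fold, adjusted p = 6.84e-06), Cenpf (1.22-fold, adjusted p = 2.86e-05) and Kif23 (1.2-fold, adjusted p = 7.78e-05). On distal chromosome 2, Ube2c and Bub1b were 1.11-fold and 1.07-fold higher in the knockout than in the mutant. Of the 211 distal genes of 50 CPM or more, 17.5% were higher and 36.5% lower in this comparison.

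Against overexpression, the knockout had 4 of the 29 higher and 14 lower (over all genes 54.8% were called, 27.5% higher and 27.3% lower, and over genes of 50 CPM or more off distal chromosome 2 41.1% higher and 24.2% lower). Racgap1 (1.38-fold, adjusted p = 1.34e-08) and Ttk (1.27-fold, adjusted p = 9.89e-07) were higher in the knockout, with Mad2l1 (1.09-fold) and Kif23 (1.08-fold). Mki67 was 1.34-fold lower (adjusted p = 2.58e-07), Cenpa 1.31-fold and Espl1 1.24-fold lower. With library size alone as the scale this split became 2 higher and 16 lower, and without knockout replicate 1 the 18 calls fell to 11. Ect2, lower than wild type in both lines, did not pass between them. All 6 distal members were lower in the knockout than in overexpression, as were 93.8% of the 211 distal genes of 50 CPM or more.

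Overexpression against the mutant gave 13 of the 29 higher and 9 lower (over all genes 52% were called, 26.8% higher and 25.2% lower, and over genes of 50 CPM or more off distal chromosome 2 16.4% higher and 48.9% lower), a split that became 16 and 5 with library size alone as the scale. Without overexpression replicate 2 the 22 calls fell to 14. Cenpa was 1.31-fold higher in overexpression (adjusted p = 6.35e-07) and Mki67 1.21-fold higher, while Kif23 was 1.29-fold (adjusted p = 1.96e-06), Ttk 1.24-fold, Ect2 1.22-fold and Cenpf 1.18-fold lower. All 6 distal members were higher in overexpression than in the mutant, by 1.38-fold (Nusap1) to 1.61-fold (Aurka). So were 91.9% of the 211 distal genes of 50 CPM or more.

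Summed over the 29 members off distal chromosome 2, the level was 5866 and 5956 CPM in wild type, 6043 and 6038 in knockout libraries, 6355 and 6205 in mutant libraries and 6350 and 6329 under overexpression. Without Top2a, the sums were 4880 and 4895 CPM in wild type, 4838 and 4818 in knockout libraries, 5133 and 5013 in mutant libraries and 5086 and 5093 under overexpression. The knockout sum thus stood above wild type with Top2a and below it without. The 6 distal members summed to 1116 and 1118 CPM in wild type, 1169 and 1169 in knockout libraries, 1174 and 1117 in mutant libraries and 1698 and 1669 under overexpression.

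A further 199 genes of mitosis and DNA replication stood in 7 wider lists, all of them tested. In the knockout 51 were higher and 52 lower, in the mutant 32 higher and 3 lower, and in overexpression 73 higher and 52 lower (91 and 37 with library size alone as the scale). Of the 19 on distal chromosome 2, 18 were higher in overexpression. Off it, overexpression had 55 higher and 52 lower among 180. The share of these 180 called was 50.6% for knockout, 17.8% for mutant and 59.4% for overexpression libraries. This lay above the 45%, 15.6% and 53.8% of all tested genes off distal chromosome 2. It lay near or below the 53.8%, 22.5% and 65.2% of those with 50 CPM or more. The lists also hold genes under 50 CPM, such as Pttg1. In the mutant, leaving out wild-type replicate 1 lowered the count of called genes from 35 to 21, and leaving out mutant replicate 2 raised it to 55.

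Of the 36 genes of the other kinetochore and checkpoint list, 5 were higher and 13 lower in the knockout and 18 did not pass. In this line 20.8% of all tested genes off distal chromosome 2 were lower, and 28.3% of those with 50 CPM or more. Cenpt and Cenpq, of the inner kinetochore, were 1.48-fold (adjusted p = 5.03e-08) and 1.49-fold lower there (adjusted p = 3.99e-07). Hjurp, the chaperone that loads the histone Cenpa, was 1.6-fold higher in overexpression (adjusted p = 1.85e-10). In the same list overexpression had 10 higher and 14 lower, and 8 and 14 of the 33 off distal chromosome 2. Genes of 50 CPM or more off distal chromosome 2 were 23.6% higher and 41.6% lower in that line.

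Among condensin and cohesin genes, 7 were higher and 6 lower of 22 in the knockout and 7 and 5 in overexpression. Of all tested genes, 24.1% were higher and 20.7% lower in the knockout, and 27.7% and 27.1% in overexpression. Pttg1, which encodes securin, the inhibitor of separase, rose 1.96-fold in the knockout (adjusted p = 4.99e-08) and 2.74-fold in overexpression (adjusted p = 1.77e-10). Of the anaphase-promoting complex, 4 of 17 were higher and 4 lower in the knockout, and 5 and 7 in overexpression, with its subunit Cdc27 lower in both. In the mutant edgeR called 0 of the 17, 3 had an unadjusted p under 0.05, and DESeq2 and limma-voom called 0. Of all tested genes, edgeR called 15.5% in the mutant.

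Centrosome and spindle pole genes had 8 higher and 8 lower of 28 in knockout libraries, 8 and 0 in mutant libraries and 12 and 4 under overexpression. Off distal chromosome 2, the last was 9 and 4 of 25. Among genes of 50 CPM or more off distal chromosome 2, 25.5% were higher and 28.3% lower in the knockout. These shares were 17.7% and 4.83% in the mutant, where most calls were thus higher too, and 23.6% and 41.6% in overexpression. Aspm and Pcnt, scaffolds of the spindle pole and centrosome, were among the 8 in the mutant, with log2 changes of 0.28 and 0.31 (adjusted p = 6.32e-05 and 3.53e-05). Other kinesins and spindle proteins split 5 and 7 of 23 in knockout libraries, 4 and 1 in mutant libraries and 11 and 8 under overexpression. Off distal chromosome 2 that last split was 6 higher and 8 lower of 18, since all 5 distal genes were higher. Stmn1, a microtubule destabilizer, was 1.64-fold lower in the knockout (adjusted p = 1.05e-08) and 1.71-fold lower in overexpression (adjusted p = 2.1e-09).

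Regulators of mitotic transcription and entry had 11 higher and 6 lower of 28 in knockout libraries, 5 and 1 in mutant libraries and 12 and 7 under overexpression. Off distal chromosome 2, overexpression had 8 higher and 7 lower of 24, or 62.5% called. Of all tested genes off distal chromosome 2, 53.8% were called, and 65.2% of those with 50 CPM or more. Mybl2, the B-Myb activator that works at CHR promoters, and Rbl1, the p107 repressor, both lie on distal chromosome 2. Rbl1 was 2.03-fold higher in the knockout (adjusted p = 5.24e-10), and Mybl2 had a log2 change of 0.40 there (adjusted p = 1.93e-07). In overexpression Mybl2 had a log2 change of 0.81 and Cdc25b, a distal gene for a phosphatase that activates CDK1, one of 1.01, beside the distal median of 0.48. DNA replication genes, which peak in S phase, had 11 higher and 8 lower of 45 in knockout libraries, 9 and 0 in mutant libraries and 16 and 7 under overexpression. Beside both lists, 24.1% of all tested genes were higher and 20.7% lower in the knockout, and 27.7% and 27.1% in overexpression. In the mutant these shares were 8.02% and 7.5%, and 17.7% and 4.83% for genes of 50 CPM or more off distal chromosome 2.

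**Figure D5:**
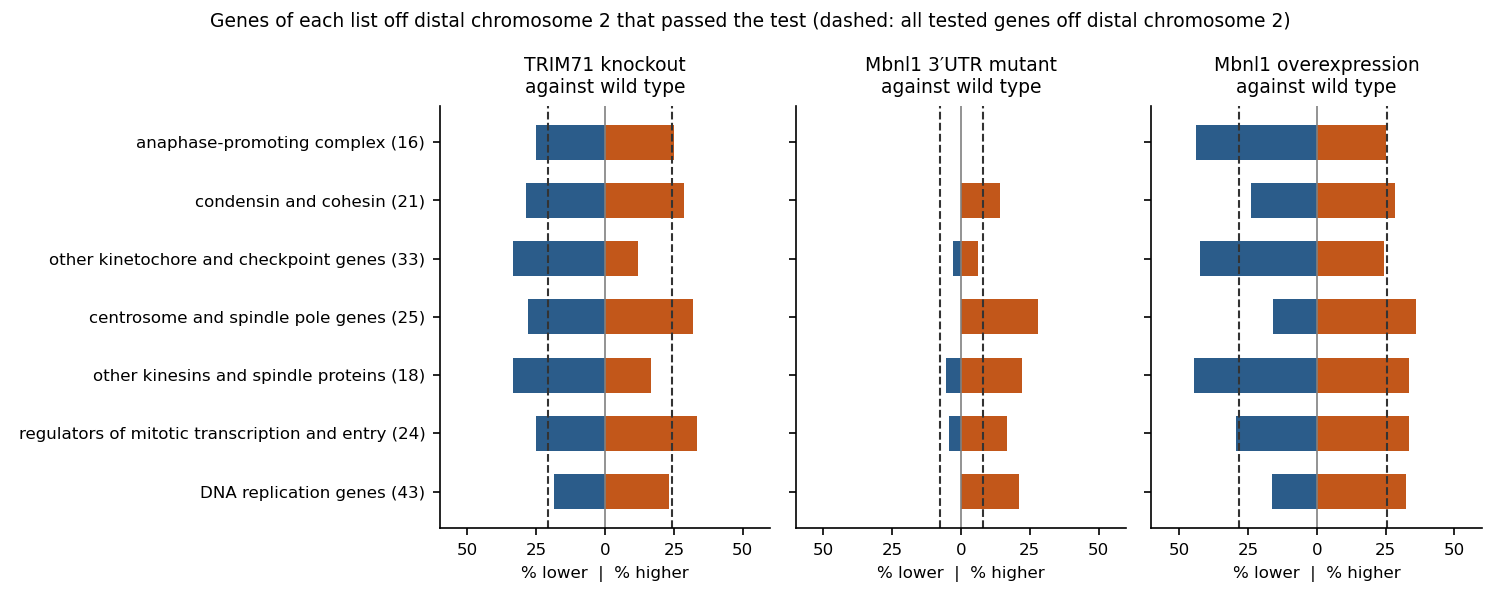
Share of each wider list off distal chromosome 2 that was lower (left) or higher (right) than wild type in each line (x axis, %), with the number of tested genes in brackets and dashed lines for all tested genes off distal chromosome 2. In the mutant nearly all called genes lie on the higher side. Genes of 50 CPM or more off distal chromosome 2, not drawn, were 17.7% higher and 4.83% lower in that line. In the knockout the 2 lists of kinetochore and of kinesin genes have more genes lower than higher.

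Markers of cell types were read beside these changes. The summed level of 12 embryonic stem cell markers was 5774 to 5852 CPM in wild type, 6933 to 6938 in the knockout, 6570 to 6611 in the mutant and 6603 to 6729 in overexpression. Fibroblast and feeder markers (11 genes) summed to 5.08 to 5.42 CPM in wild type, 8.7 to 9.49 in knockout libraries, 5.37 to 5.72 in mutant libraries and 7.79 to 8.43 under overexpression, with Lum, Dcn, Postn and Fap under 0.1 CPM throughout. Of the 6 tested, 3 were higher and 0 lower in the knockout, among them Thy1 (1.94-fold) and Col1a1 (2.32-fold). In overexpression 3 were higher and 2 lower, the latter Col3a1 and Col1a2, at 0.309 and 0.255 CPM in wild type. Primitive endoderm markers (10 genes) summed to 529 to 530 CPM in wild type, 521 to 523 in the knockout, 689 to 819 in the mutant and 660 to 680 in overexpression. These sums hide changes of single markers: in the knockout 8 of the 10 were lower and 1 higher (median log2 change -1.24). Gata4, Gata6 and Sox17 were 11.3-fold, 9.98-fold and 9.84-fold lower, and Foxa2, on distal chromosome 2, was 4.96-fold higher. In the mutant 5 of the 10 were higher and 1 lower. In overexpression 3 were higher and 5 lower (median log2 change -0.75), and Lama1 and Sparc, 1.75-fold and 1.48-fold higher, made up most of the sum. Trophoblast markers (10 genes) summed to 120 to 121.5, 136 to 137, 65.5 to 72 and 86.3 to 87.1 CPM in the same order of groups, with Elf5 under 0.1 CPM throughout. The part of these shifts in the members' changes was not tested.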

How the data were processed

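Total RNA was sequenced by a stranded protocol with paired-end reads of 75 nt, and the authors aligned reads to mm10 with STAR 2.5.0, per the submitters' processing notes. The deposited files hold the authors' raw counts per gene, without normalization. For the counting, neither annotation release nor strand setting is given in the sources used here. Of 43346 listed genes, 42462 were matched to GENCODE names and coordinates by identifier. Genes were kept by edgeR's filterByExpr (minimum count of 10, total of 15), which left 18055.

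In R 4.3.3 with edgeR 4.0.16, 1 quasi-likelihood model with TMM scaling and robust dispersions was fitted to all 4 groups (4 residual degrees of freedom, biological coefficient of variation 4.172%), and 6 contrasts were tested with Benjamini-Hochberg adjustment over all genes at 0.05. SE is the standard error of the log2 change from this model. Alternatives were other scalings, filters, fits of the compared groups alone, DESeq2 1.42.0, limma-voom 3.58.1, the replicate number as a term and leaving out each library in turn. An edgeR fit with the older quasi-likelihood method was added after the data were seen.

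On simulated data with the sizes of all 8 libraries, 47.3% of 1.25-fold and 72% of 2-fold changes were recovered. Of the calls, 10.8% (49 of 455) were false. Over 3 runs of 18055 genes, 150 genes of each size of change were altered in the simulated knockout. In the real knockout 44.8% of tested genes were called, so these shares may not carry over to the real comparisons. The 2 libraries of each group differed by more than counting noise, so none was merged. The members and lists were chosen with earlier results of these data known. The rule for names was that any member may be named, each called member is given in all libraries, and at most 4 called genes per wider list are named by smallest adjusted p.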

Additional observations from a re-analysis of the deposited data

How the results depend on the processing

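In the 3 comparisons with wild type, no called member reversed under the alternatives run. Some members were gained: in overexpression, library size alone as the scale added Bub3, Ccnb1, Cdk1 and Kif2c, and limma-voom added Kif11 and Racgap1. Libraries with the same replicate number did not deviate together (correlations of replicate differences -0.0343 to 0.06). With a replicate block, edgeR called 11 (knockout), 7 (mutant) and 19 (overexpression) members off distal chromosome 2 against wild type, and in the wider lists 98, 32 and 120. The mutant's 7 became 4 with library size alone as the scale and 3 with only the compared groups in the fit, and the mutant's 35 wider genes became 21 with only the compared groups. DESeq2 called 1 distal member between knockout and mutant in place of 2. Leaving out 1 library at a time gave 7 to 13 members off distal chromosome 2 in the knockout, 2 to 7 in the mutant, 14 to 23 between overexpression and mutant and 11 to 20 between knockout and overexpression. On distal chromosome 2 it gave 0 to 1 in the mutant and 1 to 2 between knockout and mutant, and in the mutant's wider lists 21 to 55. A group left with 1 library was assumed to vary like the others. Fewer libraries were in these fits; otherwise the cause was not tested. In the simulation of 2 libraries a group, 47.3% of 1.25-fold changes were recovered, over tested genes of every level. Far fewer genes were altered there than were called in the real knockout, so this share may not carry over.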
